A study of Rattus norvegicus with 8 samples.

Results

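The genes described here build and run the machine that empties synaptic vesicles: the SNARE proteins (Snap25, the syntaxins Stx and the vesicle proteins Vamp), the syntaxin-binding proteins (Stxbp), the synaptotagmins (Syt), complexins (Cplx), synapsins (Syn), active zone Rims, SV2 proteins, synaptophysin, its relative Sypl1 and the glutamate transporter Slc17a7. A gene was taken as a member by its name alone, as the array design spells it: any numbered Syt, Stx, Vamp, Syn, Sv2, Cplx, Rims or Stxbp, and the single genes Snap25, Syp, Sypl1 and Slc17a7. By this rule 62 of the 26334 gene names on the array were members, read by 74 probes in 119 spots. Syp, the gene of synaptophysin, is not among the gene names. The study asked how gene expression in the rat retina changes after injury to the optic nerve. Retinas came from female Lister Hooded rats, 8 weeks old. In the ONC group the right optic nerve was crushed inside the orbit, 3 mm behind the optic disc, over 10 s. The CTR group had a sham operation that left the nerve uncrushed, and all retinas were taken 2 weeks later. Each group has 4 retinas, profiled individually on 4 arrays with a channel for each retina. Since a crush at this site injures the axons of retinal ganglion cells (RGCs), the retina holds both the injured neurons and the cells that signal to them.

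When an action potential or a graded signal reaches a release site, calcium enters and vesicles that are already docked fuse with the plasma membrane. Fusion is driven by a bundle formed by syntaxin and SNAP-25 on the plasma membrane and a VAMP on the vesicle, with syntaxin-binding proteins holding syntaxin ready, synaptotagmins sensing calcium and complexins setting when the bundle may close. In the retina the ribbon synapses of photoreceptors and bipolar cells use syntaxin 3 and complexins 3 and 4, while the conventional synapses of amacrine cells use syntaxin 1A and complexins 1 and 2. Most other syntaxins and VAMPs serve membrane traffic inside all cells.

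The labels were first set against marker genes. All values are log2 signals relative to the median of their channel. Gnat1, the transducin of rods, had levels of 6.88, 6.49, 6.58 and 6.69 in the channels labelled CTR1 to CTR4 and of 6.48, 6.17, 6.46 and 6.61 in those labelled ONC1 to ONC4, high in every channel of this retinal tissue. Apart from Tubb3, the RGC markers did not follow the labels. Of 17 RGC markers 16 were on the array and 13 passed the filter on dim spots, and 12 of these had a higher mean in the channels labelled ONC, with a median log2 difference of 1.15 (the same 12 of 13 with median scaling). The log2 of their summed level was 4.0, 5.52, 4.22 and 4.61 under CTR1 to CTR4 and 5.72, 5.7, 5.74 and 4.26 under ONC1 to ONC4. This sum was high in the channels labelled CTR2, ONC1, ONC2 and ONC3 and low in those labelled CTR1, CTR3, CTR4 and ONC4. Tubb3, Gap43, Ebf1 and Stmn2 did not divide the channels in this way. Tubb3 was higher in every ONC channel (2.24 to 2.92) than in any CTR channel (1.02 to 1.80). Below, the division or pattern of the RGC markers means that of their sum. Stmn2 had the highest signal of the list, though signals of different probes do not rank abundance. Pou4f3, Nrn1 and Ebf3 did not pass the filter, and Pou4f1 is not among the gene names. Limma called 0 of the list with or without a block (1 at an unadjusted p under 0.05, against 18.6% of all genes). Nerve crush is known to cost RGCs, whereas here their markers were higher in the channels labelled ONC. The labels also place CTR in Cy5 and ONC in Cy3 on every array, while the methods place retinas of a group together on an array and divide the dyes within groups. Dye and condition cannot be told apart under the labels, channels are therefore named by their label, and every difference is between labels. The directions given here rest on the labels as deposited and would change if channels carried the wrong label.

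The vesicle and SNARE genes showed little shared movement between the labels. Cplx2, Stx6 and Stx7 were higher and Stx2 and Stx3 lower in the channels labelled ONC, on all 4 arrays each. In the limma fit with loess these 5 were called with the array as a block, which compares the CTR and ONC channel within each array, and not without it; when Aquantile between arrays was added, Stx2, Stx3 and Stx6 were called without a block (adjusted p = 0.0389, 0.0415 and 0.0415). The core of the release machine, Snap25, Stx1a, Vamp2 and Syt1, lay between -0.23 and 0.19 on the log2 scale, with no call in either fit. Of this core, Snap25 and Vamp2 were also higher in the channels labelled ONC on all 4 arrays. Syt2, Syt5, Cplx1 and the brighter probe of Vamp1 had their high channels where the summed level of the RGC markers was high. In bulk retina, fewer cells of a type and less RNA per cell cannot be told apart.

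A call is an adjusted p under 0.05 in limma over 16307 genes. Of the 51 members that passed the filter, 0 were called without a block, where 81 of all genes (0.497%) were called, and the smallest adjusted p among members was 0.0575 for Stx6. At an unadjusted p under 0.05 there were 9 members (17.6%), against 18.6% of all genes. With the array as a block 5 members (9.80%) were called, 3 higher and 2 lower, against 7.69% of all genes (1254). Levels of the CTR and ONC labels did not overlap for 7 members (13.7%), 4 higher and 3 lower, against 12.7% of all genes. The criterion of the methods, an unequal-variance test joined to a fold-change threshold of each gene's own, took 3 members (Stx6, Stx18 and Syt11), against 3.08% of all genes. When each channel was scaled to its median without loess, 10 members were called, 9 of them higher, against 19.6% of all genes, of which 71.0% were higher (46.9% of the 81). Under these rules the share among members was near that of all genes, apart from the criterion of the methods, met by only 3 members. The count of 81 changed with each channel left out: limma called 38 genes without the channel labelled ONC2 and 0 without any other. Members with an unadjusted p under 0.05 in limma numbered 18 of 51 without the channel labelled ONC4, where 3233 of the 16307 genes passed. That was a larger share of the members than of all genes. With any other channel left out, 8 to 13 members and 2085 to 3252 genes passed.

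As a list, 28 of the 51 members were higher in the channels labelled ONC and 23 lower, while 47.4% of all genes were higher; with median scaling 36 of the 51 members and 9694 of the 16307 genes were higher. The median log2 fold change was 0.025 for the members and -0.013 for all genes, and the median size without regard to sign was 0.13 and 0.14. Only Cplx2, Stx6, Syt2 and Rims3 exceeded 0.5 in size, 7.84% of the members against 4.16% of all genes. Within arrays the median of the members was 0.069, -0.075, 0.15 and 0.00013 on arrays 1 to 4, so its sign changed from array to array.

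**Figure D1:**
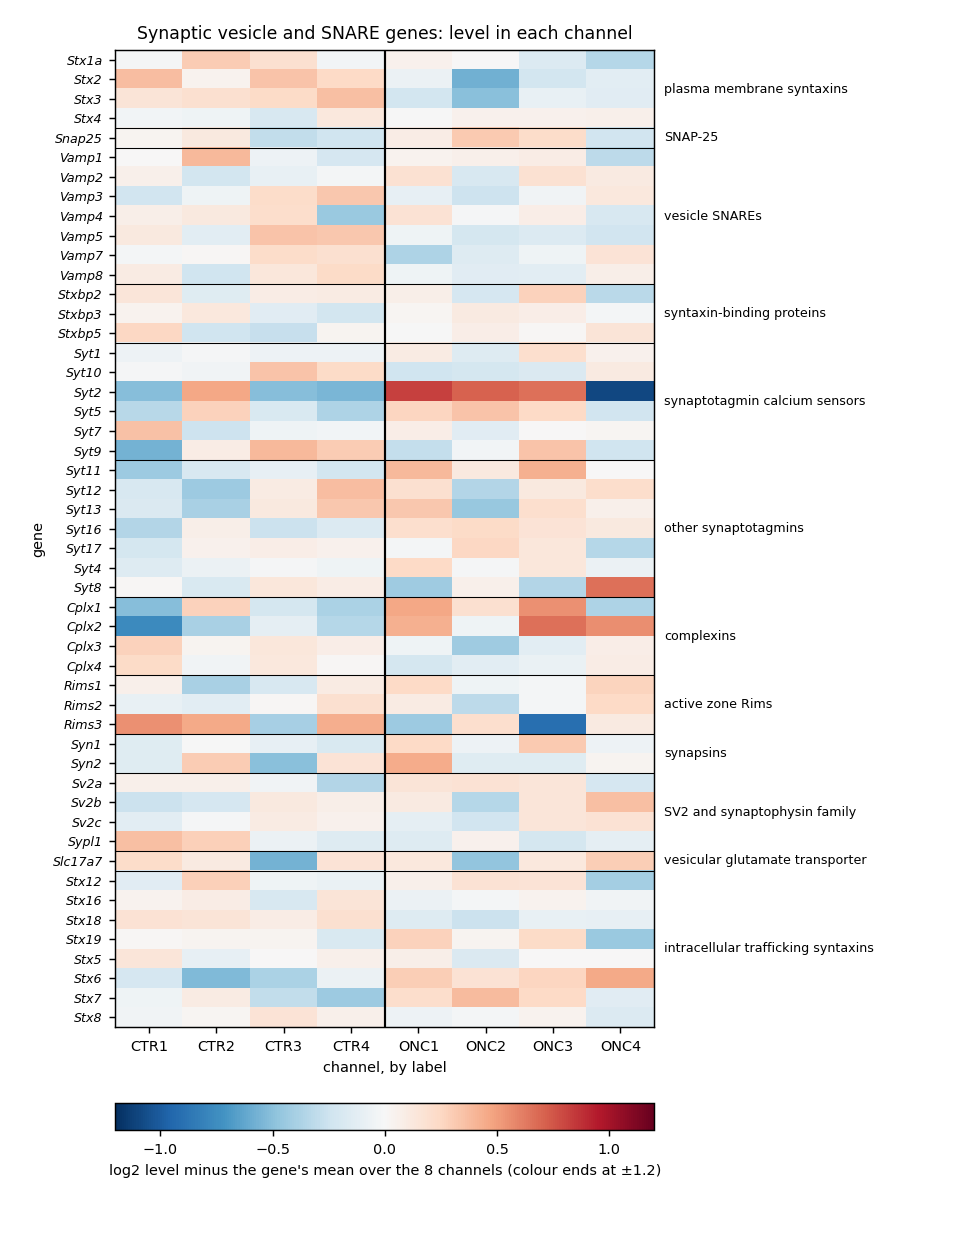
Log2 level of 50 members in each channel, by label, minus the gene's mean over the 8 channels, ordered by role. Colours are pale for most rows; the strongest rows are Syt2, Rims3, Cplx2, Syt8 and Cplx1, whose levels span 1.91, 1.45, 1.42, 1.08 and 1.06, although Syt2 was close to background in ONC4 and ran from -3.39 to -2.02 in the other channels.

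In the heatmap of levels minus gene means, red marks a channel above the gene's mean and blue a channel below it. The median member spanned 0.61 over the 8 channels and the median gene 0.57. Syt2 is red in CTR2 and ONC1 to ONC3 and blue elsewhere, Cplx2 is blue in the CTR columns and red in most ONC columns, and the syntaxins Stx2 and Stx3 show the opposite. A span above 1 was seen for 5 members (9.80%) and 14.0% of all genes.

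The filter kept a spot only where its signal was at least 2 times the background in all 8 channels, and 11 members failed it. Rims4, Stx11, Stxbp4, Syn3, Syt15 and Syt6 were under this ratio in all 4 channels labelled CTR, Stxbp5l and Stxbp6 in 3 of them, and Stx17 only in CTR4 (1.96 times). None of the 11 was under it in a channel labelled ONC, where the background is lower (26.0 to 29.5 against 55.0 to 56.5 in the channels labelled CTR). Stx11 and Stxbp4 were not well above background in any channel by the scanner software's test. Syt3 was bright, between 3.18 and 9.74 times the background, but carried an outlier mark in ONC1. Among the 51 that passed, 8 were not well above background in the channel labelled ONC4: Rims1, Stxbp2, Sv2c, Syt10, Syt13, Syt2, Syt7 and Syt9. That channel was the dimmest, with a median signal over members' spots of 732, against 1118 to 2152 in the other channels.

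SNAP-25 lends the fusion bundle its plasma membrane strands besides syntaxin. Snap25 had levels of 4.46, 4.55, 4.13 and 4.19 in the channels labelled CTR1 to CTR4 and of 4.52, 4.74, 4.65 and 4.2 in those labelled ONC1 to ONC4. It was lowest in CTR3, CTR4 and ONC4 and highest in ONC2 and ONC3, and the labels overlapped. Its log2 fold change was 0.19 (standard error 0.14, adjusted p = 0.523 in limma) and 0.024 with median scaling. The gene is read by a pair of probes, with fold changes of 0.13 and 0.25 on the log2 scale. The sequence of the second probe, with those for Stx3 and Syt2, is shown because these probes carry the values of a core SNARE, of a ribbon synapse SNARE and of a member that divides the channels as the RGC markers do. Each is 60 bases long as the array files give it, 5′ to 3′. Capitals mark a stop codon that follows 19 codons free of stops, as at the end of a coding sequence, in the probes of Snap25 and Stx3. The probe of Syt2 has no such end and no capitals.
Snap25: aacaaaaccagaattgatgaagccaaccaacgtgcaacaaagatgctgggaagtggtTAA
Stx3: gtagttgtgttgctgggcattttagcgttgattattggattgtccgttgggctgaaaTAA
Syt2: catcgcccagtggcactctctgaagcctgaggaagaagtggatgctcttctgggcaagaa

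Of the plasma membrane syntaxins, Stx1a, Stx2, Stx3 and Stx4 passed, 1 higher and 3 lower in the channels labelled ONC, also with median scaling. Stx3, the syntaxin of ribbon synapses, had levels of -0.63, -0.59, -0.56 and -0.42 in the channels labelled CTR1 to CTR4 and -1.0, -1.28, -0.87 and -0.92 under ONC1 to ONC4. Every ONC channel lay below every CTR channel, with ONC2 the lowest. The difference was -0.47 (standard error 0.11), with an adjusted p of 0.0771 in limma without a block and 0.0364 with the array as a block. On arrays 1 to 4 the ONC minus CTR difference of Stx3 was -0.38, -0.69, -0.31 and -0.50, and its adjusted p ranged from 0.0262 to 0.393 over all alternatives.

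Stx2, a syntaxin of the plasma membrane in many cell types, had levels of -2.06, -2.38, -2.08 and -2.19 under the labels CTR1 to CTR4 and -2.5, -3.0, -2.65 and -2.55 under ONC1 to ONC4. Again no ONC channel reached the lowest CTR channel, and ONC2 was the lowest. Stx2 differed by -0.50 (standard error 0.13), with limma's adjusted p at 0.0938 without and 0.0304 with the block and from 0.0304 to 0.976 over the alternatives. Its differences within arrays 1 to 4 were -0.44, -0.62, -0.57 and -0.36. Stx1a, the syntaxin of conventional synapses, had levels of 1.67, 1.99, 1.88 and 1.66 under CTR1 to CTR4 and 1.74, 1.69, 1.52 and 1.34 under ONC1 to ONC4. The Stx1a channels overlapped, ONC4 being the lowest and CTR2 the highest, and the difference of -0.23 was not called (adjusted p = 0.360 in limma). Stx4, which serves fusion at the plasma membrane outside synapses, spanned only 0.32 over the 8 channels.

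Beside Stx3, markers of photoreceptors, which hold ribbon synapses, were also mostly lower, while 10 of 12 markers of bipolar cells, which hold them too, were higher (7 with median scaling). Of 15 rod and cone markers 14 passed, 9 lower and 5 higher in the channels labelled ONC (12 lower with median scaling). Their median log2 difference was -0.26. With the array as a block 4 of them (28.6%) were called, all lower and Crx, Opn1mw and Pde6h among them, against 7.69% of all genes. Their log2 summed level was 9.29, 9.0, 9.19 and 9.29 under CTR1 to CTR4 and 9.01, 8.66, 9.01 and 9.08 under ONC1 to ONC4. Nr2e3 is not among the gene names. Whether a different share of photoreceptor RNA had a part in the difference of Stx3 was not tested.

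VAMPs are the SNAREs of the vesicle side. All 7 on the array passed, 2 higher and 5 lower in the channels labelled ONC (3 and 4 with median scaling, where Vamp1 changed sign). Vamp2, the main vesicle SNARE of synapses, had levels of 3.5, 3.22, 3.35 and 3.42 under CTR1 to CTR4 and 3.62, 3.25, 3.62 and 3.55 under ONC1 to ONC4. The labels overlapped within a span of 0.41, and the difference of 0.14 was not called (adjusted p = 0.549 in limma). Vamp1, its close relative in fast-firing neurons, had levels of 0.043, 0.42, -0.028 and -0.17 under CTR1 to CTR4 and 0.080, 0.097, 0.12 and -0.28 under ONC1 to ONC4. Here CTR2 was the highest and ONC4 the lowest channel, and the mean difference was -0.062. The brighter of its probes read 2.23, 2.94, 2.21 and 2.11 under CTR1 to CTR4 and 2.49, 2.64, 2.54 and 1.71 under ONC1 to ONC4. That probe was high in CTR2 and ONC1 to ONC3, where the sum of the RGC markers was high, while the dimmer probe did not divide the channels so.

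Vamp5, first described in muscle, had levels of -1.0, -1.25, -0.78 and -0.80 in the channels labelled CTR1 to CTR4 and -1.17, -1.33, -1.29 and -1.35 in those labelled ONC1 to ONC4. It was lower in ONC on 4 of 4 arrays, though CTR2 lay within the ONC channels. Its difference of -0.33 (standard error 0.12) had an adjusted p of 0.181 in limma and of 0.0930 with the block. Vamp3 and Vamp8, which act in endosomal recycling and in late endosomes, Vamp4 of the trans-Golgi network and Vamp7 of lysosomes had fold changes from -0.20 for Vamp7 to 0.025 for Vamp4, with adjusted p between 0.421 and 0.949. Among these Vamp7 was lower on 4 of 4 arrays.

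Syntaxin-binding proteins guide the assembly of the bundle. Stxbp2 and Stxbp3, which serve secretion in other tissues, and Stxbp5 (tomosyn), which competes with VAMP for the bundle, had differences of -0.091, 0.094 and 0.12; with median scaling Stxbp2 was called at 0.69.

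Synaptotagmins with calcium-binding C2 domains trigger fusion, and 6 of the 8 on the array passed: Syt1, Syt2, Syt5, Syt7, Syt9 and Syt10. Syt2, a fast calcium sensor, had levels of -3.35, -2.38, -3.35 and -3.39 in the channels labelled CTR1 to CTR4 and -2.02, -2.13, -2.18 and -3.93 in those labelled ONC1 to ONC4. High channels were CTR2, ONC1, ONC2 and ONC3 and low ones CTR1, CTR3, CTR4 and ONC4, the division that the RGC markers showed, and the signal in ONC4 was close to background. The mean was 0.55 higher in the channels labelled ONC (standard error 0.43, adjusted p = 0.542 in limma). Within arrays 1 to 4 the difference was 1.34, 0.24, 1.17 and -0.54, and it was 1.01 without the channel labelled ONC4. The part of RGC RNA in these levels of Syt2 was not tested.

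Syt1, the main calcium sensor of forebrain synapses, had levels of 1.93, 1.99, 1.94 and 1.94 under CTR1 to CTR4 and 2.09, 1.85, 2.2 and 2.05 under ONC1 to ONC4. All 8 lay within 0.36, with ONC2 the lowest and ONC3 the highest, and the difference was 0.10 (adjusted p = 0.608 in limma). Both of its probes gave a log2 fold change near this value, 0.096 and 0.11, but they ran opposite ways over the channels labelled CTR, with 5.02, 5.15, 4.67 and 4.45 for the brighter probe and -1.15, -1.18, -0.80 and -0.58 for the other, so the narrow span is that of their mean. Syt5 had levels of 1.38, 1.99, 1.53 and 1.34 under CTR1 to CTR4 and 1.97, 2.06, 1.95 and 1.49 under ONC1 to ONC4. Like Syt2 it was high in CTR2 and ONC1 to ONC3, over a narrower span of 0.72, and its difference of 0.31 was not called (adjusted p = 0.388).

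Syt7, a slow sensor with high calcium affinity, Syt9 and Syt10 were dim and not well above background in ONC4. Their differences were -0.013, -0.11 and -0.26, and all of them turned positive with median scaling, Syt7 to 0.65 with a call. Syt10 was lower on 4 of 4 arrays with loess.

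Of the other synaptotagmins 7 of 8 passed, 6 of them higher in the channels labelled ONC (7 with median scaling). Syt11, which binds no calcium and is known as a brake on vesicle retrieval, had levels of -1.83, -1.59, -1.49 and -1.61 under CTR1 to CTR4 and -1.0, -1.27, -0.96 and -1.39 under ONC1 to ONC4. Every ONC channel was above the highest CTR channel, and ONC3 and ONC1 were the highest. The Syt11 difference was 0.47 (standard error 0.12), with an adjusted p of 0.0933 in limma and 0.0549 with the block, so it was called in neither; with median scaling it was called. Syt16, which also binds no calcium, had levels of -1.56, -1.14, -1.47 and -1.38 under CTR1 to CTR4 and -1.01, -0.99, -1.05 and -1.09 under ONC1 to ONC4. Its ONC channels were tightly packed above all CTR channels, with a difference of 0.35 and adjusted p of 0.121 and 0.0569 in the respective fits, and a call with median scaling.

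Syt8 had levels of -2.58, -2.77, -2.46 and -2.5 under CTR1 to CTR4 and -3.02, -2.53, -2.95 and -1.94 under ONC1 to ONC4. Its ONC channels held both the lowest and the highest values, ONC1 and ONC4, while the CTR channels lay between them, and the mean difference was -0.029, which changed sign with median scaling (0.28). Syt4, an activity-induced form, Syt12, Syt13 and Syt17 differed by 0.15, 0.081, 0.063 and 0.012, with adjusted p from 0.441 to 0.973; Syt13, not well above background in ONC4, was called at 0.77 with median scaling.

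Complexins bind the assembled bundle. Cplx2, a complexin of conventional synapses, had levels of 0.78, 1.15, 1.43 and 1.2 in the channels labelled CTR1 to CTR4 and 1.96, 1.49, 2.2 and 2.1 in those labelled ONC1 to ONC4. All ONC channels lay above all CTR channels, narrowly so between CTR3 and ONC2. The difference of 0.80 (standard error 0.18) was the largest of the 51, with an adjusted p of 0.0759 in limma without a block and 0.0340 with the array as a block. On arrays 1 to 4 the ONC minus CTR difference of Cplx2 was 1.18, 0.34, 0.77 and 0.90, and over the alternatives the adjusted p ran from 0.0221 to 0.384.

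Cplx1, the other complexin of conventional synapses, had levels of 1.01, 1.79, 1.31 and 1.14 under CTR1 to CTR4 and 1.98, 1.71, 2.07 and 1.15 under ONC1 to ONC4. It was high in CTR2 and ONC1 to ONC3 and low in CTR1, CTR4 and ONC4, so the labels overlapped. Cplx1 differed by 0.42 (standard error 0.23, adjusted p = 0.379 in limma), with 0.97, -0.079, 0.76 and 0.0081 on arrays 1 to 4. Its probes gave 0.51 and 0.32. For Cplx2, by contrast, CTR2 lay with the other CTR channels and ONC4 with the high ONC channels, so its pattern was not that of the RGC markers.

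The ribbon synapse complexins were both lower in the channels labelled ONC. Cplx3 had levels of 2.28, 2.04, 2.14 and 2.09 under CTR1 to CTR4 and 1.95, 1.58, 1.87 and 2.09 under ONC1 to ONC4. Arrays 1 to 3 carried the difference and array 4 showed almost none, with ONC2 the lowest channel. Cplx4 had levels of 3.34, 3.07, 3.23 and 3.12 under CTR1 to CTR4 and 2.89, 2.98, 3.02 and 3.19 under ONC1 to ONC4, with ONC4 inside the range of the CTR channels. The differences were -0.26 and -0.17, and neither was called (adjusted p = 0.276 and 0.405 in limma).

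**Figure D2:**
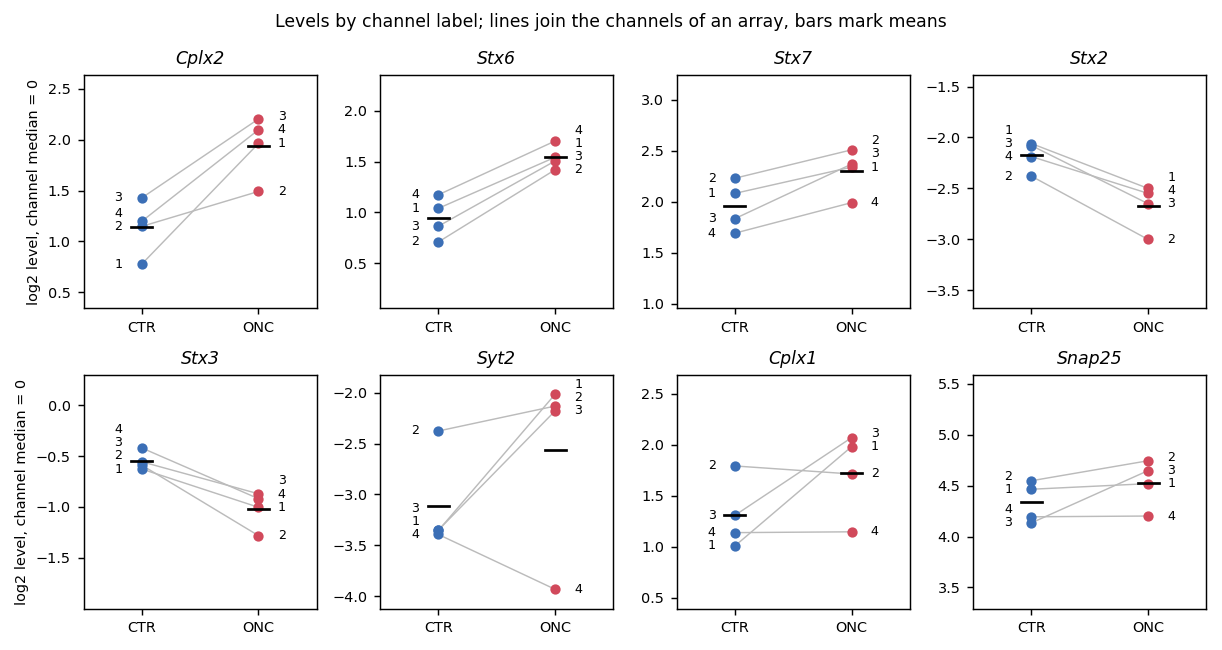
Log2 level relative to the channel median for 8 members under the CTR and ONC labels, with the array number beside each point, a grey line joining the channels of an array and a black bar at the mean. Each vertical axis spans the same length; lines run up for Cplx2, Stx6 and Stx7 and down for Stx2 and Stx3 on all 4 arrays, while Syt2 goes up by 1.34 on array 1 and down on array 4 (-0.54).

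The plot of levels by label sets these patterns side by side. For Stx6 the grey lines run nearly parallel, for Cplx2 they are steep on array 1 and shallow on array 2, and for Stx7 the channels of a label are spread more widely than 3 of the 4 lines rise. Snap25 shows lines that rise on all 4 arrays but by as little as 0.0075 on array 4.

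Rims tether vesicles and calcium channels at the active zone. Rims1 and Rims2, the long forms, differed by 0.22 (adjusted p = 0.434) and 9.8e-05; Rims1 was called at 0.84 with median scaling, and Rims2 was higher on 2 arrays and lower on 2. Rims3, a short form without the vesicle-binding end, had levels of 2.42, 2.33, 1.47 and 2.31 under CTR1 to CTR4 and 1.43, 2.08, 0.96 and 1.98 under ONC1 to ONC4. It was lower under ONC on 4 of 4 arrays, yet CTR3 lay with the lower ONC channels and the labels overlapped. The difference of -0.52 (standard error 0.29) had an adjusted p of 0.379 in limma and 0.0612 with the block. It was -0.74 without CTR3, -0.30 without ONC3 and -1.12 when only the 4 channels with the same dye under labels and methods were used.

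Synapsins hold vesicles in reserve and are absent from ribbon synapses. Syn1 had levels of -1.31, -1.18, -1.26 and -1.36 under CTR1 to CTR4 and -0.93, -1.23, -0.86 and -1.23 under ONC1 to ONC4, with ONC1 and ONC3 above all other channels. Syn2 had levels of -2.12, -1.67, -2.47 and -1.8 under CTR1 to CTR4 and -1.53, -2.12, -2.11 and -1.94 under ONC1 to ONC4, and CTR3 was its lowest channel and ONC1 its highest. Both labels overlapped for each, and the differences of 0.22 and 0.091 were not called (adjusted p = 0.333 and 0.857 in limma).

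SV2 proteins are glycoproteins found in every kind of synaptic vesicle. Sv2a had levels of 2.68, 2.68, 2.58 and 2.27 under CTR1 to CTR4 and 2.77, 2.79, 2.76 and 2.42 under ONC1 to ONC4, lowest in both channels of array 4, with differences of 0.088, 0.12, 0.18 and 0.15 within arrays 1 to 4. The difference was 0.13 (adjusted p = 0.622 in limma and 0.192 with the block). It was 0.041 without CTR4, 0.22 without ONC4 and 0.29 in CTR2, CTR4, ONC1 and ONC3 alone. Sv2b, abundant in photoreceptors and bipolar cells, and Sv2c differed by 0.14 and -0.0090, and the latter was called at 0.73 with median scaling. Sypl1, a relative of synaptophysin found in many tissues, differed by -0.21 (adjusted p = 0.429).

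Slc17a7 (VGLUT1) fills vesicles of photoreceptors and bipolar cells with glutamate. Its levels were -0.82, -0.93, -1.61 and -0.88 under CTR1 to CTR4 and -0.91, -1.52, -0.91 and -0.75 under ONC1 to ONC4. CTR3 and ONC2 were low and the remaining channels close together, so neither label stood apart, and the difference was 0.038 (standard error 0.21).

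The remaining syntaxins act in membrane traffic inside the cell, and 8 of 10 passed, 3 higher and 5 lower in the channels labelled ONC (4 and 4 with median scaling). Stx6, which works between endosomes and the trans-Golgi network, had levels of 1.04, 0.71, 0.86 and 1.17 under CTR1 to CTR4 and 1.54, 1.42, 1.5 and 1.7 under ONC1 to ONC4. The highest CTR channel, CTR4, stayed below the lowest ONC channel, ONC2. The difference of 0.59 (standard error 0.12) had an adjusted p of 0.0575 in limma without a block, 0.0285 with the block and 0.0151 to 0.395 over the alternatives. Within arrays 1 to 4 Stx6 differed by 0.50, 0.71, 0.64 and 0.53.

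Stx7, the syntaxin of late endosomes and lysosomes, had levels of 2.08, 2.23, 1.83 and 1.69 under CTR1 to CTR4 and 2.34, 2.51, 2.37 and 1.99 under ONC1 to ONC4. The labels overlapped, with CTR4 the lowest channel and ONC4 within the CTR channels, but each ONC channel exceeded the CTR channel of its array, by 0.26, 0.28, 0.54 and 0.30. The difference of 0.34 (standard error 0.15) had an adjusted p of 0.264 in limma, 0.0482 with the array as a block and 0.0482 to 0.905 over the alternatives. Stx18, a SNARE of the endoplasmic reticulum, had levels of -1.82, -1.84, -1.91 and -1.8 under CTR1 to CTR4 and -2.15, -2.25, -2.09 and -2.09 under ONC1 to ONC4. Its channels did not overlap between labels and were close together within each. Stx18 differed by -0.30 (adjusted p = 0.0925 in limma and 0.0517 with the block). With median scaling its difference was -0.12 (adjusted p = 0.319 in limma).

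Stx5 of the Golgi, Stx8 of late endosomes, Stx12 of recycling endosomes, Stx16 of the trans-Golgi network and Stx19 had differences from -0.10 for Stx8 to 0.054 for Stx19, with adjusted p between 0.567 and 0.992. Stx5 and Stx8 were lower on 4 of 4 arrays, and Stx16 changed sign with median scaling.

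**Figure D3:**
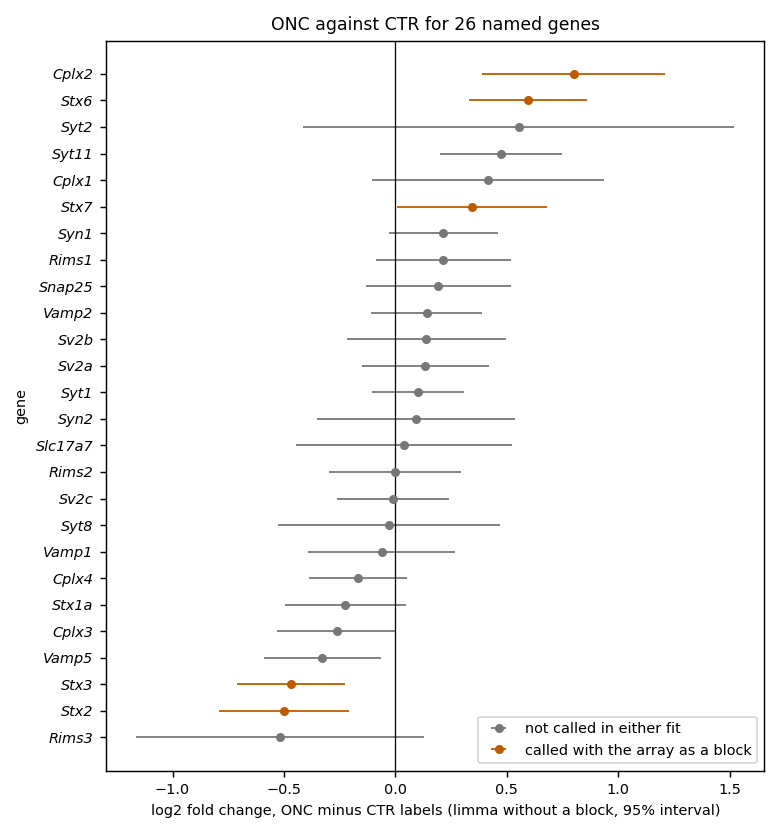
Log2 fold change between the channels labelled ONC and CTR for 26 named members, with the 95% interval of the limma fit without a block; orange marks the 5 called with the array as a block. Points run from -0.52 for Rims3 to 0.80 for Cplx2, and the widest interval is that of Syt2.

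In the plot of fold changes the intervals of the 5 orange members exclude 0, as does that of Syt11 (0.20 to 0.75) and that of Vamp5 (-0.59 to -0.064), before any adjustment over genes. The interval of Syt2 runs from -0.42 to 1.52. That of Snap25 reaches from -0.13 to 0.52, so it holds differences in either direction.

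The promoters of Cplx2, Stx6, Stx2 and Stx3 are shown as the pair with the largest fold change in each direction among the members called with the block. Each of these genes differed in 1 direction on all 4 arrays, as did members called in neither fit, such as Snap25, Vamp2 and Sv2a. RefSeq's promoter table, on build GRCr8, holds 51 promoters for 47 of the 62 members, each 300 bases around the start of the gene. Capitals mark matches, on either strand, to the letters GGGCGG of the GC box, CACGTG of the E box, CCAAT of the box of that name, TGACG of the cAMP response core and TATAAA of the TATA box. No base belongs to more than 1 match in these sequences. Cplx2 lies at chr17:10236704-10237003 on the minus strand, Stx6 at chr13:69882397-69882696 on the plus strand, Stx2 at chr12:33325619-33325918 on the plus strand and Stx3 at chr1:218110417-218110716 on the minus strand.
Cplx2: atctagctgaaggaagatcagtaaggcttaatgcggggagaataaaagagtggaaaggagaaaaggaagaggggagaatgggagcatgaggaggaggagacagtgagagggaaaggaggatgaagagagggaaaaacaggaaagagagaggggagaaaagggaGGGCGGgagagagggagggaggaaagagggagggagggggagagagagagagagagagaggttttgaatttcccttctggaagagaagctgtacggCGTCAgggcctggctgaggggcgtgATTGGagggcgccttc
Stx6: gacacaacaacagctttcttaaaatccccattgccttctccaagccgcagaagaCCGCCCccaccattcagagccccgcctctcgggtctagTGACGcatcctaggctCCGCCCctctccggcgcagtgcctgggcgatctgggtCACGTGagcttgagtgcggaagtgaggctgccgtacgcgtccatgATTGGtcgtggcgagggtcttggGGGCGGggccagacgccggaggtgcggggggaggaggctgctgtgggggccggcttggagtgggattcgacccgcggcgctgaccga
Stx2: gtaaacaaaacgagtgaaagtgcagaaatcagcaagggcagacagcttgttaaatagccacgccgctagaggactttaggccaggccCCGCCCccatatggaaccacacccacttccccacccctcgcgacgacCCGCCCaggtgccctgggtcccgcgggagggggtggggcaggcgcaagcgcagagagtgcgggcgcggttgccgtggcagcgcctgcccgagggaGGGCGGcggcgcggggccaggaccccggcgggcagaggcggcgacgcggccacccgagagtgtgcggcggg
Stx3: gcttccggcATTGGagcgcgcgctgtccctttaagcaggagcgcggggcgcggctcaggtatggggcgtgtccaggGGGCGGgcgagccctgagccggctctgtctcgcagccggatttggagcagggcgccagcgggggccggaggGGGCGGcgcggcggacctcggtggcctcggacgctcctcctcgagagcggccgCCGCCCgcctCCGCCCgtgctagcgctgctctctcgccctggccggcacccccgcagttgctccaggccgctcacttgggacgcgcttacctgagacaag

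The GC box was found in all of them, 1 time in Cplx2, 3 times each in Stx6 and Stx2 and 4 times in Stx3. Stx6 alone of these 4 held the E box, and none held the TATA box. Over the 33469 promoters of the table the GC box occurs in 33.1%, the E box in 6.42%, the CCAAT box in 37.5%, the cAMP response core in 21.2% and the TATA box in 14.2%. Among the 51 member promoters the shares were 62.7%, 7.84%, 31.4%, 25.5% and 9.80%. The member promoters are also richer in G and C, with a median of 62.0% against 51.7% over all. A match describes letters in this window and was set against no binding data.

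The spread among retinas of a label was similar for the members and for all genes. Relative expression variability, the methods' corrected coefficient of variation over a gene's spots, had a median of 28.1% under CTR and 25.5% under ONC for the members, and of 25.1% and 21.7% for all genes. It was 84.8% under CTR and 94.7% under ONC for Syt2, whose channels fall far apart under both labels. Syt8 had 79.5% under ONC, and Rims3 had 56.0% and 71.4%. Stx18, whose labels did not overlap, had 6.73% and 11.1%. No test was made of these differences in spread.

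More than 1 probe was kept for 6 members. For Cplx1, Snap25, Syt1, Syt4 and Vamp1 the probes of a gene had fold changes of the same sign, while those of Rims2 gave -0.016 and 0.016. Syt4 gave 0.22 and 0.072 and Vamp1 -0.029 and -0.095.

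**Figure D4:**
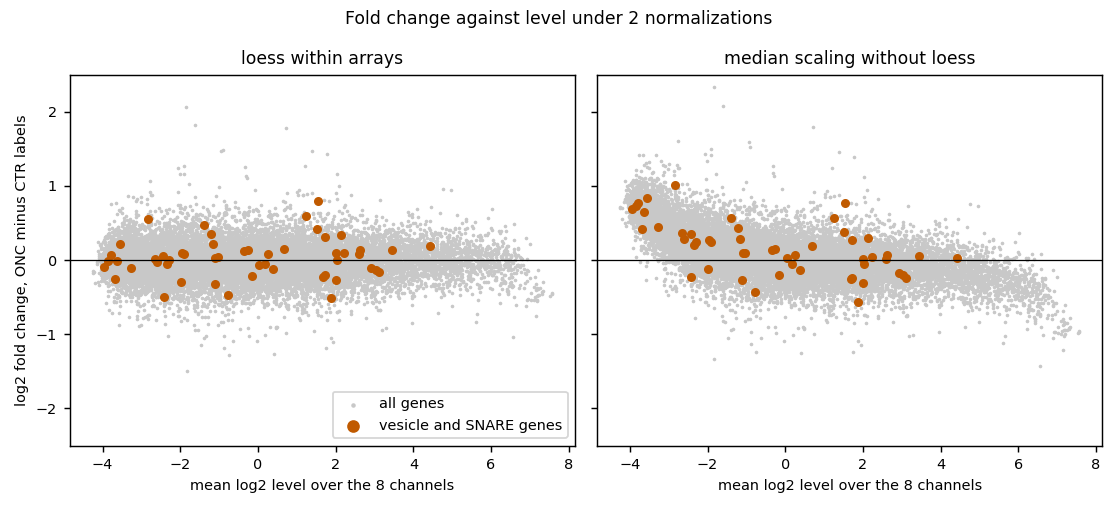
Log2 fold change between the ONC and CTR labels against mean log2 level over the 8 channels, with loess within arrays (left) and with each channel scaled to its median (right), for all 16307 genes in grey and the 51 members in orange. The left cloud is level around 0; in the right cloud dim genes lie above 0, with a median of 0.46 for the 4077 dimmest.

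Which members look higher depends on how the dyes are brought to a common scale, as the plot of fold change against level shows. In the 4077 genes of lowest mean level the median log2 fold change was -0.014 with loess and 0.46 with median scaling, and the 14 members among them went from -0.011 to 0.43. Among the 4077 brightest genes it was -0.0022 and -0.12, and the 16 members among these had medians of 0.037 and -0.016. Of the 10 members called with median scaling, 5 were not well above background in the channel labelled ONC4, and 3 of the 10 were also called with the block: Cplx2, Stx3 and Stx6. With median scaling Cplx2, Stx6 and Stx3 differed by 0.77, 0.57 and -0.43. Stx2, by contrast, went from -0.50 to -0.23.

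Other genes of transmitter release were taken from 5 lists of 119 genes, of which 105 passed, 54 higher and 51 lower in the channels labelled ONC, with a median of 0.0086. Limma called 1 of them without a block, against 0.497% of all genes. With the block it called 12 (11.4%), 2 higher and 10 lower, against 7.69% of all genes, where 40.0% of the calls were higher. Among SNARE partners and the proteins that take spent bundles apart, 21 of 24 passed, 9 higher and 12 lower, with a median of -0.056. There Napa (alpha-SNAP), Snap29, Vps33b and Vps45, which binds syntaxins of the endosome, were called lower with the block, at -0.38, -0.37, -0.39 and -0.51 on the log2 scale (adjusted p = 0.0457, 0.0367, 0.0417 and 0.0394). Gosr1, Snap47 and Snap23 were the highest of that list, at 0.31, 0.23 and 0.22, and none of these was called.

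For active zone and priming proteins, 32 of 34 genes passed, 21 higher and 11 lower, with a median of 0.049 (0.21 with median scaling, where that of all genes was 0.073). Nrxn2, a presynaptic adhesion protein, was called higher with the block (0.47, adjusted p = 0.0340), and Cacna2d4, a calcium channel subunit of photoreceptors, and Ppfia1 were called lower (-0.52 and -0.37, adjusted p = 0.0293 and 0.0385). Of the further calcium sensors and vesicle membrane proteins 21 of 28 passed, 7 higher and 14 lower (11 higher with median scaling, which turns the median to 0.052), with a median of -0.048. Dnajc5, the vesicle chaperone CSP, had levels of 0.68, 0.58, 0.96 and 0.50 under CTR1 to CTR4 and -0.049, 0.12, 0.077 and -0.062 under ONC1 to ONC4. Its labels did not overlap, and its difference of -0.66 was the single call without a block (adjusted p = 0.0483, and 0.0290 with it). Atp6v0d1, of the pump that acidifies vesicles, was called lower with the block (-0.45, adjusted p = 0.0305).

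Of vesicle transmitter transporters 5 of 7 passed, 3 higher and 2 lower, with a median of 0.027 (0.38 and 4 higher with median scaling). There were 0 calls in either limma fit and 1 at an unadjusted p under 0.05, against 18.6% of all genes. Slc17a6 (VGLUT2), the glutamate transporter of RGCs and also on the RGC list, had levels of -1.49, 2.55, -0.93 and -0.81 under CTR1 to CTR4 and 2.61, 2.58, 2.66 and -1.4 under ONC1 to ONC4, the division seen for Syt2. All 26 endocytosis genes passed, 14 higher and 12 lower, with a median of 0.057. Synj2, a lipid phosphatase of coated vesicles, was called higher with the block, and Bin1 and Sh3gl3 (endophilin A3) lower, at 0.33, -0.34 and -0.43 (adjusted p = 0.0459, 0.0449 and 0.0313).

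The other marker lists, of cell types around these synapses, were also compared between the labels. Mueller glia markers were lower in the channels labelled ONC for 7 of 9 passed, with a median of -0.23 (8 lower and -0.46 with median scaling) and a log2 summed level of 8.14, 7.85, 8.1 and 7.86 under CTR1 to CTR4 and 7.88, 7.67, 7.92 and 8.02 under ONC1 to ONC4. Dkk3 had the highest signal of them, Kcnj10 did not pass, and Slc1a3 and Vim were called lower with the block (22.2%, against 7.69% of all genes). Microglia and macrophage markers were lower for 11 of 12 passed (7 with median scaling), with a median of -0.32 and C1qb with the highest signal. Their summed levels were 3.71, 3.58, 4.6 and 4.6 and 3.36, 3.91, 3.59 and 3.86 in the same order. They had 0 calls in either limma fit and 4 at an unadjusted p under 0.05, a cut that 18.6% of all genes passed. Medians of the remaining lists were -0.061 for amacrine (12 of 14 passed, 1 called lower with the block), 0.13 for bipolar (12 of 12, with Isl1, which RGCs also express, called higher in both fits), -0.014 for horizontal (5 of 5), 0.061 for oligodendrocyte (6 of 8, 1 called lower with the block), 0.23 for pigment epithelium (4 of 8), -0.39 for lens (13 of 14) and 0.13 for endothelium and blood cells (6 of 8). With median scaling they were, in the same order, -0.011, 0.20, 0.0037, 0.59, 0.47, -0.43 and 0.23. The block calls made up 8.33% of the amacrine, 8.33% of the bipolar and 16.7% of the oligodendrocyte markers that passed, against 7.69% of all genes. Lens markers stood apart in CTR2, with log2 summed levels of 6.52, 7.93, 6.85 and 6.29 under CTR1 to CTR4 and 6.08, 6.78, 6.09 and 7.15 under ONC1 to ONC4. The part of any of these cell types in the members' differences was not tested.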

How the data were processed

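Retinal RNA from 4 CTR and 4 ONC samples was hybridised in 2 colours to 4 arrays of 1 slide. The authors deposited intensity per spot, as Agilent Feature Extraction 12.0.3.1 wrote it per the file headers (11.1.19.1 in the submitters' processing notes): uncorrected mean foreground, median background and a processed signal. The group of each channel came from its label. Spots were dropped if they were controls, carried an outlier mark or had, in 1 or more of the 8 channels, a foreground under 2 times its background, which kept 27371 of 42877 spots, 18599 probes and 16307 of 26334 genes. The filter follows the methods; subtraction of background, loess (span 0.3) within arrays and median centring of each channel stand in for their in-house normalization. Each gene's log2 value is the mean of its probes, and each probe's the mean of its spots. Gene names are the array's; 69 of the members' 74 probes matched RefSeq by accession, all under the same symbol. Median foreground was 218 to 626 and median background 26.0 to 56.5 over channels, and no spot was saturated. The number of arrays limits the precision.

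The test of ONC against CTR was limma 3.58.1 (R 4.3.3), two-sided and unpaired, with Benjamini-Hochberg adjustment over all genes. The methods give an unequal-variance test for the arrays, which limma replaces here. The fits without and with the array as a block were tried on simulated data in which every channel varied independently. Those data held no deviation shared by the channels of an array, so they do not test the block. The labels put same-numbered CTR and ONC channels on the same array. Deviations from the group means correlated over genes by 0.149, 0.549, 0.401 and 0.487 for numbers 1 to 4, all above 0.1 though number 1 correlated best with another number, so the fit with the array as a block is given where it changes a call. Named members are a core chosen by role, those called in either fit, the 4 largest fold changes in each direction and the 5 widest ranges over channels; of the pathway lists, those called in either fit and at most 3 in each direction. Some genes of the lists are not reported here. Lists of pathway genes (5) and cell type markers (11) are described by counts and medians. Members and lists were chosen with earlier results of these data known. Alternatives were the block, median scaling, Aquantile, processed signals, normexp with offset 50, no filter on dim spots and the brightest probe. Further ones were the 4 channels whose dye the labels and methods give alike, each channel left out and the methods' test. Those 4 channels are CTR2 and CTR4 in Cy5 and ONC1 and ONC3 in Cy3, so they do not separate dye from label. Relative expression variability followed the methods' equation. Motifs were searched in Python 3.11.15 with pandas 2.3.3, numpy 2.4.6 and scipy 1.17.1, and plots were drawn with matplotlib 3.10.9.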

Additional observations from a re-analysis of the deposited data

Results flagged for a closer look

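Each value here is the level of a member in a channel that lay far from the other 3 channels of its label, by Dixon's ratio of gap to range. Of the 102 groups of 4 channels 9 had such a channel, or 8.82%, where chance gives about 1 in 20; over all genes 7.91% of the groups had one, and channels are shared between genes, so the groups are not independent. Syt2 is the only member with one under both labels: -2.38 against -3.39 to -3.35 in the rest of CTR for the channel labelled CTR2, and -3.93 against -2.18 to -2.02 in the rest of ONC for the one labelled ONC4, where its signal was not well above background. These are the channels in which the summed level of the RGC markers also departs from the others of their label.

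Levels below the rest of their label were found for Rims3 in CTR3 (1.47 against 2.31 to 2.42), Slc17a7 in CTR3 (-1.61 against -0.93 to -0.82), Stx19 in CTR4 (-2.62 against -2.43 to -2.4), Syt17 in CTR1 (-2.86 against -2.6 to -2.57), Sv2a in ONC4 (2.42 against 2.76 to 2.79) and Vamp1 in ONC4 (-0.28 against 0.080 to 0.12). Syt1 in CTR2 lay above the rest (1.99 against 1.93 to 1.94), a gap smaller than 0.1 in the mean of 2 probes; CTR2 was the highest of its label for the brighter probe and the lowest for the other. The channel labelled ONC4, the dimmest, holds 3 of the 9.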

How the results depend on the processing

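Of 416 values of the 26 named members under alternatives, 378 kept their direction and their side of the threshold, 13 became calls with the same sign and 25 changed sign, 1 of them with a call; 20 of the 26 kept their sign throughout. With the array as a block 1254 genes and 5 members were called, and the block changed no other call among the members. Median scaling without loess called 3194 genes and 10 members (71.0% of the genes higher, against 46.9%) and moved the members' median to 0.14; Aquantile between arrays called 412 genes and 3 members. Processed signals of the scanner software called 21 genes (57.1% higher), normexp 14 (71.4%), the brightest probe per gene 124, no filter on dim spots 0 of 25942 (1957 at an unadjusted p under 0.05) and the 4 channels whose dye the labels and methods give alike 0 (1961 unadjusted), each with 0 members. The methods' test called 2682 genes and 7 members at their threshold, 0 after Benjamini-Hochberg, and 503 genes and 3 members with the fold-change threshold. Leaving out each channel in turn gave 0 to 38 genes.

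Some named members changed sign. Sv2c was 0.73 (adjusted p = 0.0147 in limma), Syt8 0.28 and Vamp1 0.034 with median scaling, and Rims2 -0.00028 with Aquantile. Sv2c was 0.031 with processed signals, and Syt8 0.0086 without the filter. Slc17a7 was -0.0062 and Syn2 -0.085 in CTR2, CTR4, ONC1 and ONC3 alone. With a channel left out the ranges were -0.080 to 0.10 for Rims2, -0.14 to 0.056 for Vamp1, -0.14 to 0.20 for Slc17a7, -0.068 to 0.065 for Sv2c, -0.062 to 0.21 for Syn2 and -0.25 to 0.11 for Syt8. Values of members that kept their sign moved too, over 0.040 to 0.28 for Sv2b, 0.041 to 0.22 for Sv2a, 0.049 to 0.17 for Syt1, 0.37 to 1.01 for Syt2, 0.12 to 0.28 for Rims1, -0.74 to -0.30 for Rims3, 0.089 to 0.23 for Vamp2, 0.12 to 0.30 for Snap25, 0.30 to 0.61 for Cplx1, -0.33 to -0.16 for Cplx3, -0.22 to -0.12 for Cplx4 and -0.28 to -0.15 for Stx1a. Other alternatives took Syt1 to 0.017 (median scaling) and Vamp2 to 0.019 (processed signals) and 0.30 (CTR2, CTR4, ONC1 and ONC3 alone). Among further moves, median scaling took Syt2 to 1.01, Rims2 to 0.24, Syn2 to 0.27 and Sv2a to 0.074. Processed signals took Slc17a7 to 0.19 and Sv2b to 0.076. In CTR2, CTR4, ONC1 and ONC3 alone Syn1 was 0.37, Cplx3 -0.15, Vamp5 -0.20 and Syt8 -0.35. Without the filter Stx2 was -0.24. The cause was not tested.

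Limits lie in the design: 4 channels a label and dye tied to label on every array. Another is that the summed level of the RGC markers does not follow the labels. Signal over background sets a further one, since 66.8% of spots were well above background in the channel labelled ONC4 and 72.5% to 79.4% in the others, and 11 members were too dim or marked as outliers.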
